A study of Mus musculus with 34 samples.

Results

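Histone H3 trimethylated at lysine 9 (H3K9me3) was compared between the mouse embryonic stem cell lines D2 5-5 and QJ 6-1. D2 5-5 is a DBA/2J (D2) line. QJ 6-1 is a line of the congenic strain B6.D2-(rs30079041-rs51756099)/Bakr, called B6-13D2 here, which has a C57BL/6J (B6) background and carries a chromosome 13 segment from D2. The lines therefore share the D2 alleles of that segment and differ in background. The members were the 4 H3K9me3 libraries labelled as technical replicates of these lines, 2 for each line, out of 34 libraries in the whole series, and every row of their table of 248336 regions was used. Each line is 1 line, and technical replicates show the spread between libraries, so the p-values compare these lines and not the strains in general. Per the labels' protocols, all cells were grown in serum with LIF, the MEK inhibitor PD0325901 and the GSK3 inhibitor CHIR99021, and chromatin was fixed with formaldehyde, cut with micrococcal nuclease and precipitated with 1 Active Motif antibody. Further libraries used for reference were a B6 line (B6 5-1), a congenic line with the opposite arrangement (XE 2-4 of D2.B6-(rs29224292-rs13469455)/Bakr, called D2-13B6, a B6 segment on a D2 background), separate D2 and B6 lines, and H3K27ac libraries of the same 4 lines, made with a Cell Signaling antibody.

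H3K9me3 marks heterochromatin. In embryonic stem cells it is written largely by the methyltransferase SETDB1, which KRAB zinc finger proteins bring to the sequences they bind through the corepressor TRIM28 (KAP1). Its best known targets there are retrotransposons, clusters of zinc finger genes and the methylated allele of imprinting control regions, the latter through ZFP57. H3K27ac, in contrast, marks active promoters and enhancers.

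The sequences of 4 regions with large differences, 2 in each direction, are printed here to show the kind of DNA involved. They were picked from the regions described below and are not the 4 with the largest differences. Each is the central 300 bases of the region on the forward strand of mm10 (GRCm38.p6), which derives from B6, with CpG dinucleotides in capitals.
Near Ccr1, chr9:123932860-123933159, higher in D2: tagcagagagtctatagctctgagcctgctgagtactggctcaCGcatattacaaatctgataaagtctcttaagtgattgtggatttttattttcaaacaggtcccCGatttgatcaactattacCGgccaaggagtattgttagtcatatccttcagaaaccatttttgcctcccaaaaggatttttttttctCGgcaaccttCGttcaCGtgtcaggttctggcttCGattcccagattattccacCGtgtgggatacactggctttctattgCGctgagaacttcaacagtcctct
Drosha intron, chr15:12872835-12873134, higher in D2: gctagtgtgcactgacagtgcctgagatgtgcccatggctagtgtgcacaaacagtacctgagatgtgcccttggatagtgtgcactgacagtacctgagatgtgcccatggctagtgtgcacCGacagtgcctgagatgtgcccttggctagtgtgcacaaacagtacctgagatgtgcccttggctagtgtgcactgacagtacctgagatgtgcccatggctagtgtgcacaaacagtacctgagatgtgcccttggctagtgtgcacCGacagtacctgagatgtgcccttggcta
Near Wrn, chr8:33222691-33222990, higher in B6-13D2: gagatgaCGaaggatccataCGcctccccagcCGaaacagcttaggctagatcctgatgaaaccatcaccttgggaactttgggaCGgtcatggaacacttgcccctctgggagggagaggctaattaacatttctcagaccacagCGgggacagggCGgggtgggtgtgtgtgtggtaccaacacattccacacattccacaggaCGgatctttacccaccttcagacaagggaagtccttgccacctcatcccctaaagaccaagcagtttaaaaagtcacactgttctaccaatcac
Trak1 intron, chr9:121319936-121320235, higher in B6-13D2: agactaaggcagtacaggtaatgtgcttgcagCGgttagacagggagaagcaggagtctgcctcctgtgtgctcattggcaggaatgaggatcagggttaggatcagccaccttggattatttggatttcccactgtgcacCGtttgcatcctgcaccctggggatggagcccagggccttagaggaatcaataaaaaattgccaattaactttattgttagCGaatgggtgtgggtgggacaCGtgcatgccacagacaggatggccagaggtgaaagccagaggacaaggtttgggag
The window near Ccr1 held 9 CpG and had 15.7% of its bases marked as repeats in the assembly, and that in Drosha 2 CpG and 0% marked. The window near Wrn held 7 CpG with 44.7% marked as repeats, and that in Trak1 4 CpG with 15.7% marked.

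The 4 libraries held between 1573625 and 2118055 counts, so that 1 count was worth about 0.5 CPM (counts scaled to a library of 1e+06 by TMM-adjusted totals). The 2 B6-13D2 libraries differed by close to counting noise (chi-square per degree of freedom 1.064), whereas the 2 D2 libraries differed by more (1.553), with 16336 regions at 0 counts in D2 replicate 1 and 7123 in replicate 2. In D2-13B6, replicate 1 stood apart from the other libraries of its line (2.455 and 2.467, against 1.211 between those). The cell type label was checked on H3K27ac within 1 kb of marker gene starts. The summed level of 8 stem cell markers was 1370 to 1500 CPM in D2 and 1290 to 1370 CPM in B6-13D2. That of 6 fibroblast markers was 44.3 to 52.1 CPM in D2 and 29.5 to 35.9 CPM in B6-13D2, with Postn, a matrix protein gene, at 0.436 to 0.558 and 0.906 to 1.1 CPM. The 5 primitive endoderm markers summed to 16.6 to 18.8 and 10.8 to 13.8 CPM, the 4 trophoblast markers to 19.4 to 22.7 and 14.2 to 19.2 CPM, and the 4 neural markers to 24.3 to 25.7 and 16.6 to 21.3 CPM. Against these sums, Pax6 was lower in D2 (10 to 10.4 against 11.8 to 14.2 CPM), as was the stem cell marker Tfcp2l1 (124 to 138 against 158 to 170 CPM). The sums of other cell types were thus low but higher in D2, and their part in the results was not tested.

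Of 86874 regions with enough counts to test, 7170 (8.25%) differed between D2 and B6-13D2 at an adjusted p under 0.05. H3K9me3 was higher in D2 at 2387 of them (2.75% of tested regions) and higher in B6-13D2 at 4783 (5.51%). The change was large at most of these regions: 6415 differed by at least 2-fold, and the median absolute log2 fold change was 1.65. The 2 libraries of each line did not overlap at 7140 of the 7170, against 51.2% of all tested regions. Leaving out B6-13D2 replicate 1 or 2, or D2 replicate 1 or 2, brought the number down to 4562, 3581, 4506 and 3476, and leaving out D2-13B6 replicate 1 raised it to 8963. DESeq2 called 2321. The median difference varied with the level of a region, though not steadily. The median log2 difference of all regions was 0.02, but it was 0.19 in regions under 5 CPM and -0.47 in those over 50 CPM. The last group includes regions of chromosome 13 at 65-67 Mb, a block described below. Outside that block, with levels taken in the higher line, the median was 0.1 under 10 CPM and -0.23 at 10 to 20 CPM. It was -0.44 at 20 to 50, -0.16 at 50 to 100, 0.08 at 100 to 200 and -0.44 over 200 CPM. With a scaling that follows the level, 2696 regions had more H3K9me3 in D2 and 4264 more in B6-13D2. Among the 11849 regions with a mean of at least 20 counts these numbers were 1375 and 1444.

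**Figure D1:**
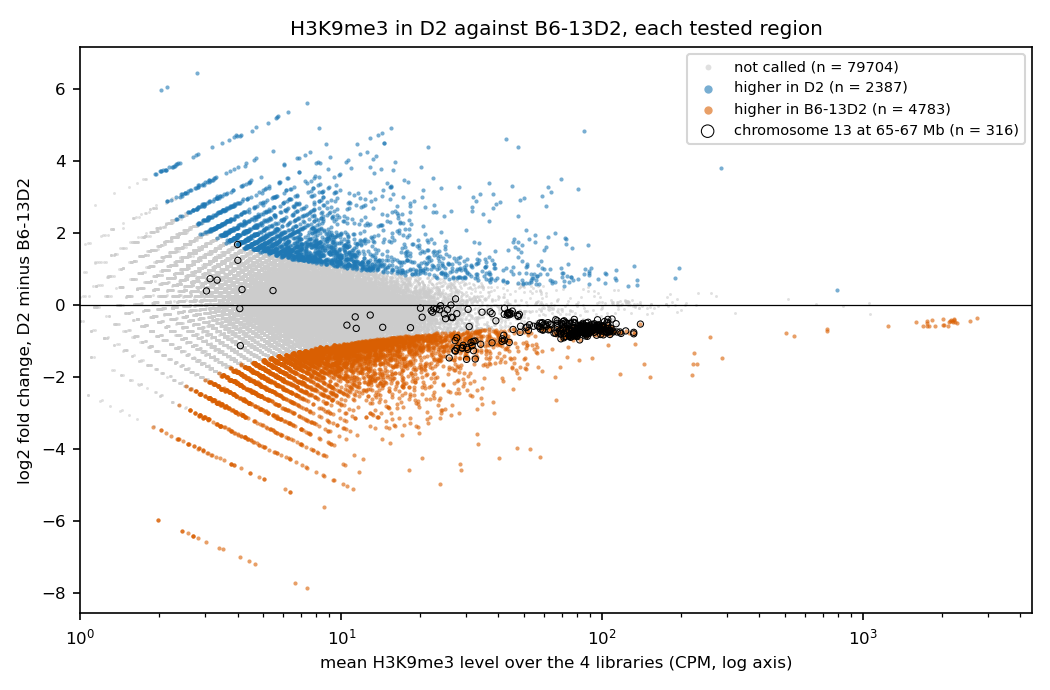
Each point is 1 tested region, with its mean H3K9me3 level over the 4 libraries (CPM, log axis) on the x axis and the log2 fold change D2 minus B6-13D2 on the y axis. The 4783 regions higher in B6-13D2 lie below 0 and the 2387 higher in D2 above it, and the circled regions on chromosome 13 at 65-67 Mb form a compact cloud at a median of -0.66.

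Most of the differences lay outside the chromosome that carries the segment. Off chromosome 13, 6690 of 82710 regions (8.09%) differed, and on chromosome 13 480 of 4164 (11.5%). Outside 65-70 Mb of chromosome 13 the share was 6.73% (251 of 3727). Chromosomes 12 and 14 had 12.7% and 12.3% called, and on chromosome 12 the calls were mostly higher in D2 (326 of 496), whereas on chromosome 4 they were mostly higher in B6-13D2 (462 of 582). Regions between genes were called more often (9.69%) than introns (7.62%) or coding exons (5.55%). Pseudogenes were called most often (16.2%, 213 of 1312), 106 higher in D2 and 107 higher in B6-13D2. Intergenic calls were mostly higher in B6-13D2 (2898 of 3873) and coding exon calls mostly higher in D2 (570 of 816). At promoters, taken as 1 kb around the start of a protein-coding gene, 772 of 14589 regions differed (5.29%), 527 higher in D2 and 245 higher in B6-13D2, against 8.85% of other regions. Without B6-13D2 replicate 1 or 2, or D2 replicate 1 or 2, the promoter count was 415, 318, 490 and 325.

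The largest gains in D2 lay between genes or in introns, where B6-13D2 had few counts. At chr9:123931516-123934505, 27.6 kb from Ccr1, a chemokine receptor gene, the level was 168 and 161 CPM in D2 and 5.64 and 5.6 CPM in B6-13D2. The log2 fold change was 4.85 (SE 0.24, edgeR adjusted p = 1.1e-41). H3K27ac there did not pass the test (log2 0.35, adjusted p = 0.289). At chr15:12872443-12873527, in an intron of Drosha, which encodes the nuclease that cuts primary microRNAs, D2 had 23.2 and 21 CPM and B6-13D2 0.94 and 0.933 (log2 4.47, SE 0.51, edgeR adjusted p = 1.79e-12). An intron of Rrn3, an initiation factor of RNA polymerase I, at chr16:13785544-13787114, had 29.4 and 20.5 CPM in D2 and 1.41 and 1.4 CPM in B6-13D2. A site 8.3 kb from Shcbp1l, at chr1:153416303-153416889, had 17.1 and 23.6 CPM against 1.88 and 0.933. That the D2 libraries were above the B6-13D2 libraries without overlap was a condition of the choice of these sites. D2-13B6 was high like D2, with 184 to 229 CPM at the site near Ccr1, and B6 was low, with 10.5 to 12.1 CPM. Among regions with 0 counts in both B6-13D2 libraries, of which 3 were called, the promoter of Scaper had 4.89 and 6.3 CPM in D2, at least 8.05-fold higher. An intron of Ppp1r37, a regulatory subunit of protein phosphatase 1, had 4.89 and 3.68 CPM, at least 6.03-fold higher. Both bounds take 3 counts as the floor over the B6-13D2 group.

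The largest losses in D2 were at sites between genes, in introns or in a pseudogene. At chr8:33222025-33223658, 10.7 kb from Wrn, the RecQ helicase gene mutated in Werner syndrome, B6-13D2 had 41.4 and 51.3 CPM and D2 1.84 and 1.05 CPM (log2 -4.97, SE 0.41, edgeR adjusted p = 8.67e-21). H3K27ac was lower in D2 there as well, by a log2 fold change of -5.55. At chr9:121319232-121320941, in an intron of Trak1, an adaptor that links mitochondria to motor proteins, B6-13D2 had 34.8 and 35 CPM and D2 1.22 and 1.58 CPM (log2 -4.56, SE 0.43, edgeR adjusted p = 6e-17). Here H3K27ac was higher in D2, by 1.92 on the log2 scale (adjusted p = 2.72e-13). An intron of Slc10a7 at chr8:78512782-78514165 had 25.9 and 20.5 CPM in B6-13D2 and 0.612 and 1.58 CPM in D2, with H3K27ac higher in D2 by 0.56 (edgeR adjusted p = 0.00168). The pseudogene Gm12892 at chr4:122007826-122009545 had 48.4 and 61.1 CPM against 1.22 and 3.68. An intergenic site at chr10:3112227-3112595 had 53.1 and 57.4 CPM against 2.45 and 2.1. Of 17 called regions with 0 counts in both D2 libraries, the highest off chromosomes 13, 18, X and Y lay in an intron of Tusc3, a subunit of the oligosaccharyltransferase complex, with 13.2 and 16.3 CPM in B6-13D2, at least 17.4-fold higher. B6 was high and D2-13B6 low at each of these 6 sites. H3K27ac in D2 was also near 0 at the sites near Wrn (0.6 and 0.223 CPM) and in Tusc3 (0.218 and 0.335 CPM). No input library is used and mm10 derives from B6. The copy number of a sequence, the alignment of D2 reads and the marks thus cannot be told apart there.

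**Figure D2:**
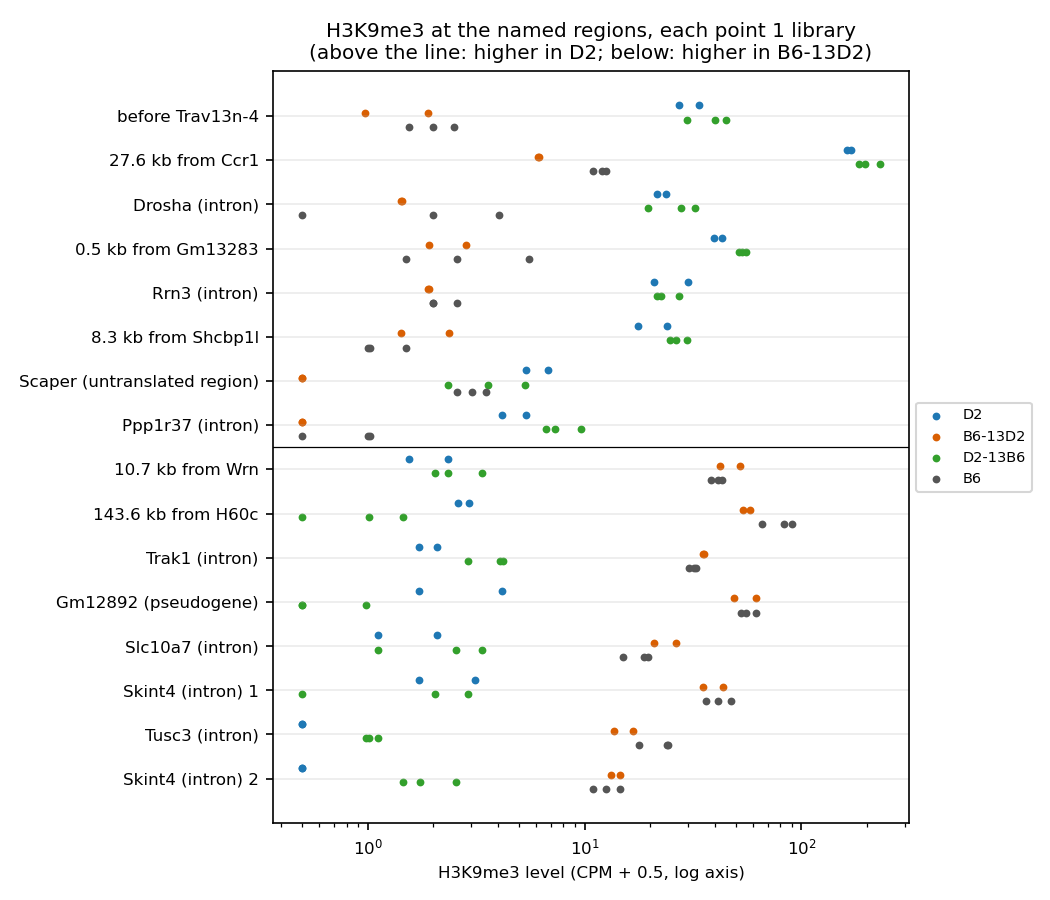
H3K9me3 level (CPM + 0.5, log axis) in each library at the regions with the largest differences, 8 per direction, with lines told apart by colour. D2 (blue) and D2-13B6 (green) lie together and apart from B6-13D2 (orange) and B6 (grey) at most regions, Scaper being an exception, where B6 had 2.09 to 3.01 CPM and B6-13D2 0 CPM.

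Several gene families were called almost entirely in 1 direction. Skint genes, which encode butyrophilin-like proteins of the skin and thymus, had 18 of 24 regions higher in B6-13D2 and 0 higher in D2. The background share higher in B6-13D2 was 5.51%, and the list's median log2 difference was -2.93 against 0.02 for all regions. In the Skint4 intron at chr4:112159399-112161519 B6-13D2 had 42.8 and 34.5 CPM and D2 1.22 and 2.63 CPM (log2 -4.25, SE 0.4, edgeR adjusted p = 1.21e-16). Another Skint4 intron region had 0 counts in D2 and 12.7 and 14 CPM in B6-13D2, at least 15.7-fold higher. Of 15 Skint calls tested for H3K27ac, 15 were called lower in D2 for it as well and 0 higher, against 1291 lower and 867 higher of all 4299 regions higher in B6-13D2 for H3K9me3 and tested for both marks. DESeq2 called 8 of the Skint regions. At chr4:112159399-112161519, H3K27ac was 0.0545 and 0 CPM in D2 and 22 and 20.7 CPM in B6-13D2. Copy number, the alignment of D2 reads and the marks themselves cannot be told apart at the Skint genes either.

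Variable segments of the antigen receptor genes, which are joined by recombination in lymphocytes, moved the other way. Of 123 regions, 68 had more H3K9me3 in D2 and 3 more in B6-13D2, against 2.75% and 5.51% of all tested regions, and the median over the list was 1.79 on the log2 scale. Within gene bodies alone, 26 of 50 had more in D2 and 1 had more in B6-13D2. The T cell receptor segments on chromosome 14 had 48 of 64 regions higher in D2 and 0 lower, with a median level of 14.1 CPM in D2 and 2.82 CPM in B6-13D2. Heavy chain segments on chromosome 12 had 20 of 44 higher and 2 lower, and the segments of the list on chromosome 6 had 0 of 15 higher and 1 lower. The region before Trav13n-4, at chr14:53361074-53361336, had 26.9 and 33.1 CPM in D2 and 0.47 and 1.4 CPM in B6-13D2 (log2 4.92, SE 0.46, edgeR adjusted p = 9.85e-17). H3K27ac was called in the direction of H3K9me3 at 63 of the 71 calls and in the opposite direction at 1. Of all 6621 calls tested for both marks, these numbers were 2192 and 1294. No input library is used here and mm10 derives from B6, so that the number of copies of a sequence, the alignment of D2 reads and the marks themselves cannot be told apart at such loci.

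Zinc finger protein genes, among them the KRAB family described above, had 162 of 954 regions called (17%, against 8.25% of all), 139 higher in B6-13D2 and 23 higher in D2. Most of these lay in the cluster on chromosome 4 at 145-148 Mb, where 82 of its 148 regions were higher in B6-13D2 and 1 higher in D2. Elsewhere, outside that cluster and 65-68 Mb of chromosome 13, 76 of 773 were called (9.83%), 55 higher in B6-13D2 and 21 higher in D2, the median being 0.14 on the log2 scale. At Zfp992, chr4:146468943-146469935, B6-13D2 had 101 and 111 CPM and D2 34.9 and 29.4 CPM (log2 -1.72, SE 0.19, edgeR adjusted p = 1.47e-12). H3K27ac was lower there too, by a log2 fold change of -1.42. Against the trend of the cluster, the region at the start of Zfp990, chr4:145515442-145517822, had 42.8 and 35.2 CPM in D2 and 12.7 and 9.8 CPM in B6-13D2. On chromosome 7, Zfp568 had 24.4 and 25.2 CPM in B6-13D2 and 5.51 and 6.3 CPM in D2 at its start. Without D2 replicate 1, D2 replicate 2, B6-13D2 replicate 1 or B6-13D2 replicate 2, 86, 89, 109 and 91 regions of the list were higher in B6-13D2, and 15, 11, 8 and 8 higher in D2.

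Imprinted genes, expressed from the maternal or the paternal allele only, had 13 of 107 regions called (12.1%, against 8.25% of all tested regions), with 13 higher in B6-13D2 (5.51% of all) and 0 higher in D2 (2.75% of all), although the list's median difference was 0.02. Several of the 13 lie at known imprinting control regions. In each of the 13 the 2 D2 libraries were below the 2 B6-13D2 libraries. The libraries of the lines did not overlap at 7140 of all 7170 calls either. The promoter region of Peg3 and Usp29 at chr7:6726759-6731328 had 11 and 12.6 CPM in D2 and 33.4 and 36.4 CPM in B6-13D2 (log2 -1.55, SE 0.28, edgeR adjusted p = 1.19e-05). The region of Mest, at chr6:30736141-30740002, had 11 and 13.1 CPM against 34.3 and 34.5 CPM. That of Snrpn, at chr7:60002551-60005461, had 4.89 and 5.25 CPM against 19.7 and 20.5 CPM. The levels stood at 5.51 and 6.83 CPM in D2 and 25.4 and 31.7 CPM in B6-13D2 at Peg13 (chr15:72808752-72811121, log2 -2.19, SE 0.33, edgeR adjusted p = 1.22e-07). Kcnq1ot1, the antisense RNA of the Kcnq1 domain, had 5.51 and 6.83 CPM in D2 at chr7:143295040-143297376, below both B6-13D2 libraries (log2 -1.78, SE 0.34, edgeR adjusted p = 4.14e-05). Smaller differences were found upstream of H19 (chr7:142580024-142582212; 17.1 and 11 against 26.3 and 31.3 CPM) and at Airn and Igf2r (11.6 and 16.3 against 25.9 and 24.7 CPM). Upstream of Meg3 the levels were 8.56 and 5.25 CPM against 19.3 and 14.9 CPM. Plagl1 had 3 called regions, that at its promoter with 5.51 and 3.68 CPM against 9.4 and 12.1 CPM. The calls at the Plagl1 promoter and at Airn and Igf2r were lost on leaving out any 1 of the 4 libraries, and also without B6 replicate 1 at Plagl1 and without any 1 B6 library at Airn and Igf2r. The call at Sgce was lost without B6-13D2 replicate 2, D2 replicate 1 or 2, any 1 B6 library or D2-13B6 replicate 2, that at Meg3 without B6-13D2 replicate 1 or D2 replicate 2, and that upstream of H19 without B6-13D2 replicate 2 or D2 replicate 2.

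Of 12 of these imprinted regions tested for H3K27ac, it was called higher in D2, the opposite direction, at 7 and lower at 1, the Sgce region (log2 -1.79). Of all 4299 regions higher in B6-13D2 that were tested for H3K27ac, 867 were called in the opposite direction and 1291 in the same one. At Peg13 it was higher in D2 by 1.31 and at Kcnq1ot1 by 0.89 on the log2 scale. D2-13B6 was below B6 at 13 of 13 (edgeR adjusted p under 0.05). In the separate lines, 10 of the 12 tested were lower in D2 than in B6 and 0 higher. D2 5-5 and B6 5-1 are each among the lines of that set, so it is not independent in lines. DESeq2 called 6 of the imprinted regions. With the level-dependent scaling 11 were higher in B6-13D2 and 1 higher in D2, and without D2 replicate 2 there were 8. Among regions with a mean of at least 20 counts, 7 were higher in B6-13D2 and 2 higher in D2.

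**Figure D3:**
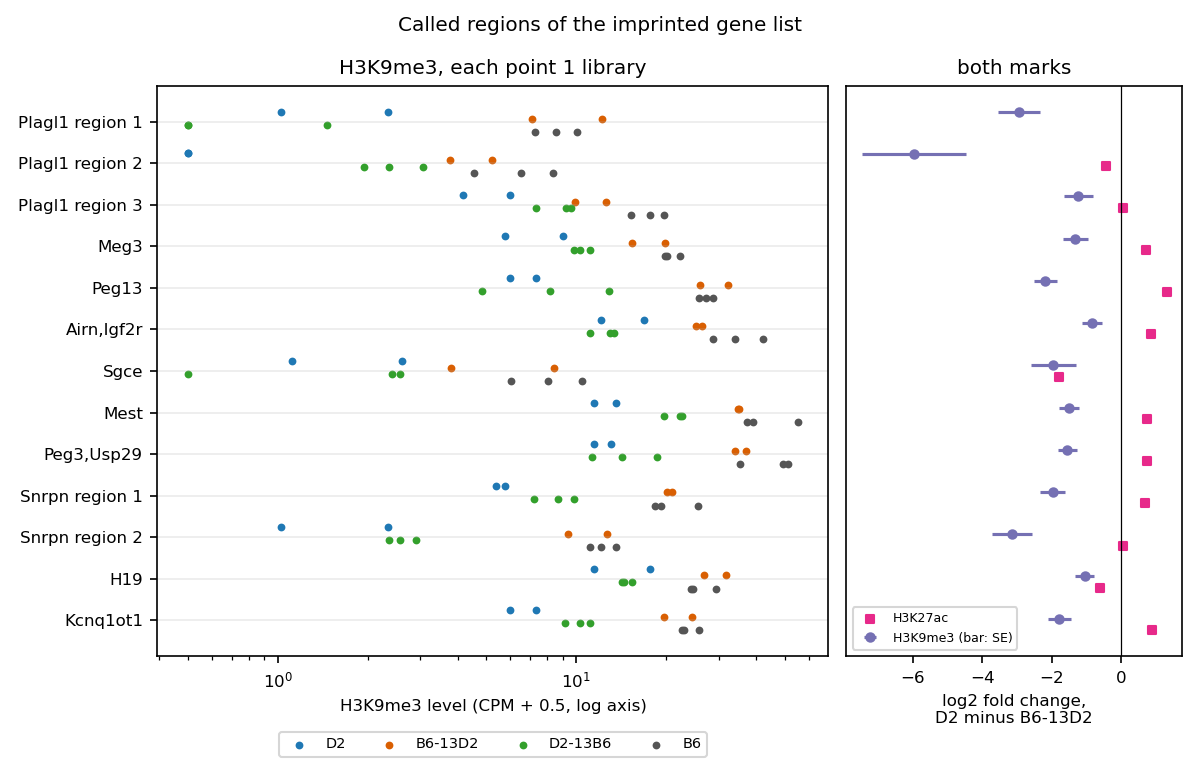
Left, H3K9me3 level (CPM + 0.5, log axis) in each library at the 13 called regions of the imprinted gene list. Right, log2 fold change D2 minus B6-13D2 of H3K9me3 (circles, bars are the SE) and of H3K27ac (squares). The H3K9me3 points lie left of 0 in all 13 regions, and the H3K27ac points right of 0 in 9 of 12.

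The hexamer TGCCGC is the core of the sequence that ZFP57 binds when it is methylated. It was found on either strand (as TGCCGC or GCGGCA) in 8 of the 13 called imprinted regions, against 20.3% of all tested regions over their whole width. The imprinted calls were 361 to 4570 bases wide, and the median width of all regions is 547, and wider regions hold more matches. To show its spacing, the 150 bases with most matches are printed for 2 regions, with the matches in capitals.
Peg13, chr15:72809912-72810061: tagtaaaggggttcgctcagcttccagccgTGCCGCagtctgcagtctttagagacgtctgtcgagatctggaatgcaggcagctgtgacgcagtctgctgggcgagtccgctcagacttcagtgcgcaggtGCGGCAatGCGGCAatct
Kcnq1ot1, chr7:143295600-143295749: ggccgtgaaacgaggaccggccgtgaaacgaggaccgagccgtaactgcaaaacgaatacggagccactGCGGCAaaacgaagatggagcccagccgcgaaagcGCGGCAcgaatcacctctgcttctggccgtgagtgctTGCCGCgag
Each stretch holds 3 matches. Over the central 300 bases, the hexamer was in 7.08% of regions higher in D2 and 5.29% of those higher in B6-13D2, against 8.11% of all tested regions. Over the whole width the shares were 22.6%, 13.7% and 20.3%, so that the order of D2 and all regions depends on the window. Repeat content differed more: over 50% of the window was marked as repeat in 54.4% of regions higher in B6-13D2 and in 18.1% of those higher in D2, against 29.1% of all. The corresponding CpG densities were 1.95, 2.54 and 2.66 per 100 bases.

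The lists of regulators of the stem cell state and of early lineages are to be read against 8.25% of all tested regions called. Of 59 regions of naive pluripotency genes, 3 were called (5.08%), each higher in D2, against 2.75% of all regions higher in D2. The promoter of Dppa3, which encodes a maternal factor that protects imprints, had 9.79 and 10.5 CPM in D2 and 3.29 and 3.27 CPM in B6-13D2 (log2 1.61, SE 0.45, edgeR adjusted p = 0.0108), with H3K27ac lower in D2 by a log2 fold change of -1.29. The others lay at Esrrb (7.95 and 17.3 against 4.7 and 6.53 CPM) and Utf1 (10.4 and 6.3 against 3.29 and 2.33 CPM). Among 44 regions of lineage regulators, 2 were called (4.55%), at Pax6 and Gsc, both higher in D2. Among 79 Hox regions 2 were called (2.53%), at Hoxd12 and Hoxa13, both higher in D2, which is close to the share of all regions in that direction. The calls at Dppa3 and Hoxd12 were lost on leaving out any 1 of the 4 libraries, and those at Esrrb, Utf1 and Hoxa13 on leaving out any 1 but D2 replicate 1, D2 replicate 2 and B6-13D2 replicate 1, in that order. Those at Pax6 and Gsc were lost without B6-13D2 replicate 2 or D2 replicate 1.

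Of 52 regions at writers and readers of H3K9 methylation, 4 were called (7.69%), a share close to the 8.25% of all tested regions. Introns of Setdb1, Kdm4c (an H3K9 demethylase) and Atf7ip (a partner of SETDB1) were higher in B6-13D2, with log2 fold changes of -1.24, -1.69 and -2.23, and a region over the starts of Daxx, a chaperone of histone H3.3, Tapbp and Zbtb22 was higher in D2 (2.21). The calls at Setdb1 and Daxx were lost on leaving out any 1 of the 4 libraries, that at Atf7ip without B6-13D2 replicate 1 or D2 replicate 1, and that at Kdm4c without B6-13D2 replicate 2 or D2 replicate 2. Germline genes had 4 of 56 called (7.14%, also close to that of all regions), Syce1 and Tex11 higher in D2 and Tuba3a and Smc1b higher in B6-13D2. Of these, the Syce1 call was lost without any 1 of the 4 libraries or any 1 B6 library, and the Smc1b call without D2 replicate 1. In the large receptor families, 22 of 224 olfactory receptor regions had more H3K9me3 in B6-13D2 and 2 more in D2 (10.7% called). These calls lay mostly in the 5 kb before the genes: within gene bodies alone, 1 of 96 olfactory regions had more in B6-13D2 and 2 had more in D2. Of 110 vomeronasal receptor regions, 9 were higher in B6-13D2 and 0 in D2 (8.18% called, close to the share of all regions). Leaving out B6-13D2 replicate 2, D2 replicate 1 or D2 replicate 2 left 11, 14 and 10 olfactory regions higher in B6-13D2. The remaining lists had 6 calls or fewer each, and those of Obox and Scgb genes had 0 of 4 and 0 of 5.

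Among promoters off chromosomes 18, X and Y with at least 4 counts in B6-13D2 and 10 CPM in D2, the largest gain was at Gm13283. It lies in the interferon gene cluster of chromosome 4 and had 39.2 and 42.5 CPM in D2 and 1.41 and 2.33 CPM in B6-13D2 (log2 4.4, SE 0.38, edgeR adjusted p = 5.55e-19). Hspbp1, a cochaperone of HSP70, had 17.7 and 16.8 CPM against 0.94 and 1.87. The largest losses, among promoters with at least 4 counts in D2, were at Fancl, a ubiquitin ligase of the Fanconi anemia pathway, with 18.3 and 16.8 CPM in B6-13D2 and 2.45 and 0 CPM in D2, and at Bst1, an ectoenzyme. Bst1 had 26.8 and 31.3 CPM in B6-13D2 and 1.84 and 3.68 CPM in D2 (log2 -3.33, SE 0.38, edgeR adjusted p = 3.9e-12), and its H3K27ac was higher in D2 by 1.71. Bnc2 showed the same opposition (log2 -3.27 for H3K9me3 and 0.6 for H3K27ac), whereas at Mme, which encodes neprilysin, both marks were lower in D2 (-3.23 and -4.27).

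On chromosome 13 the D2 alleles of the segment are shared, yet the block at 65-67 Mb differed. Here 218 of 316 regions were lower in D2 than in B6-13D2 and 0 higher, 83 of 147 at 65-66 Mb and 135 of 169 at 66-67 Mb. Over the 302 regions with at least 20 CPM in the higher line, the median level was 91.2 and 106 CPM in B6-13D2 and 54.1 and 66.7 CPM in D2. It was 5.04 to 6.03 CPM in B6 and 3.84 to 4.35 CPM in D2-13B6, the lines without the D2 segment. Both lines with the segment were thus far above those without it, and B6-13D2 was above D2, with median log2 fold changes of -0.59 and -0.72 in the 2 megabases. The quartiles were -0.7 and -0.32 at 65-66 Mb and -0.83 and -0.61 at 66-67 Mb. Regions elsewhere in the genome with 20 to 50 CPM had a median of -0.44, against -0.3 in the block, those with 50 to 100 CPM -0.16 against -0.66, and those with 100 to 200 CPM 0.08 against -0.7. The number of calls was sensitive to single libraries: 205 and 26 without B6-13D2 replicate 1 and 2, and 55 and 180 without D2 replicate 1 and 2. The median stayed between -0.86 and -0.54 without any 1 of these 4. It was -0.47, with 101 calls, under the level-dependent scaling and -0.42, with 79 calls, among regions with a mean of at least 20 counts, and DESeq2 called 72. H3K27ac at the same regions was 110 and 110 CPM in B6-13D2 and 102 and 98.6 CPM in D2, a median log2 difference of -0.18 in both megabases, and 3.42 to 4.14 CPM in the lines without the segment. It was called at 38 of 146 regions at 65-66 Mb, 2 of them higher in D2, and at 2 of 169 at 66-67 Mb. In the separate lines, the H3K9me3 level was 27.8, 25.3 and 19.9 CPM in D2 and 3.91 to 5.34 CPM in B6. The 25.3 CPM came from D2 5-5 itself, which had 54.1 and 66.7 CPM in the libraries compared here. The level of this line in the block thus also differed between library sets, and the cause was not tested.

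**Figure D4:**
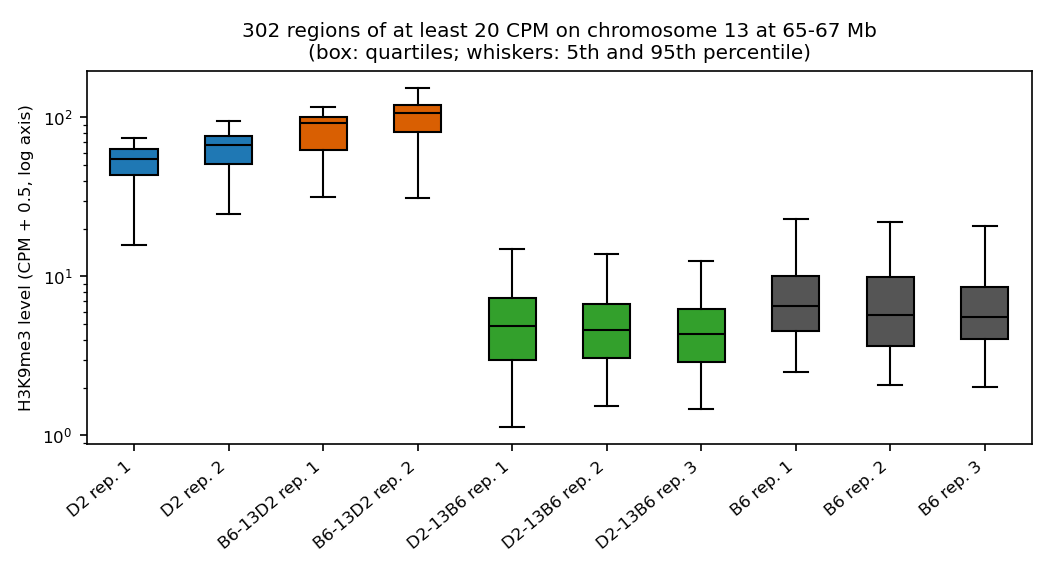
H3K9me3 level (CPM + 0.5, log axis) of 302 regions on chromosome 13 at 65-67 Mb in each library, as quartile boxes with whiskers at the 5th and 95th percentile. Medians of the B6-13D2 libraries (91.2 and 106 CPM) lie above those of D2 (54.1 and 66.7 CPM), and the D2-13B6 and B6 libraries lie at medians of 3.84 to 6.03 CPM.

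The calls in the block formed long runs. With gaps of at most 20 kb, 97 calls ran from chr13:66143781-66641092 (497 kb), 86 from chr13:65584813-66032165 (447 kb) and 32 from chr13:66680049-66835419 (155 kb), each lower in D2. With gaps of at most 10 kb these runs broke up, and the longest in the block held 31 calls over 108 kb. Of the regions between genes or in introns there, that at chr13:66791120-66791621 had the smallest p, with 12.8 and 21 CPM in D2 and 44.2 and 52.2 CPM in B6-13D2 (log2 -1.49, SE 0.25, edgeR adjusted p = 2.35e-06), and its H3K27ac did not pass the test (log2 -0.07, adjusted p = 0.746). The central 300 bases of this region are printed as the example with the smallest p. They hold 0 CpG, and 89.7% of the bases are marked as repeat.
Chromosome 13 block, chr13:66791220-66791519: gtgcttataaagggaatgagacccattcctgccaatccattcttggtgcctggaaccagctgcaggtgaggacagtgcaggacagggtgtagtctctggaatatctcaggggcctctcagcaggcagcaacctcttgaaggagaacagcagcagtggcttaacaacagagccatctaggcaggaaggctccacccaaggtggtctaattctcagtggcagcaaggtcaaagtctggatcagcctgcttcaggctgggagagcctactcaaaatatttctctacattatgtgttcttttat
The longest runs higher in D2 were on chromosome 8, with 53 calls over 184 kb at chr8:20258598-20442821 (median log2 0.87, H3K27ac -0.18), and on chromosome 17, with 39 calls over 140 kb at chr17:6389503-6529019 around Dynlt1b (median 1.92, H3K27ac 3.03). With gaps of at most 10 kb they held 43 calls over 137 kb and 39 calls over 140 kb. The run on chromosome 17 thus rose in both marks and that on chromosome 8 in H3K9me3. Elsewhere on chromosome 13, at 75-80 Mb, 26 of 122 regions were called, 24 of them higher in B6-13D2. Outside that interval, a called region lay in an intron of Cast, the calpain inhibitor calpastatin, at chr13:74787539-74789068. It had 11 and 14.7 CPM in D2 and 0.47 and 1.4 CPM in B6-13D2, with H3K27ac lower in D2 (log2 3.7 for H3K9me3 and -1.82 for H3K27ac). Another lay at chr13:45356096-45357199, 32.5 kb from Mylip, a ubiquitin ligase of the LDL receptor. It had 16.9 and 13.1 CPM in B6-13D2 and 3.06 and 0.525 CPM in D2, with lower H3K27ac in D2 (log2 -3.09 and -3.33).

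The same contrast of backgrounds, with the B6 segment in both lines, was given by D2-13B6 minus B6, which shares no library with the comparison above. There 18191 of 86874 regions were called (20.9%), with 3 libraries a line, and 12057 without B6 replicate 1. Of the 7170 regions called here, 5019 were called there too, 4998 in the same direction and 21 in the opposite one. Conversely, 27.6% of its calls were called here. In both contrasts, the names of the B6-background and of the D2-background libraries run in separate number ranges, also for H3K27ac. Background and library series therefore cannot be told apart in either contrast. Across 86874 regions the log2 fold changes had a Pearson correlation of 0.65 and a Spearman correlation of 0.601, a description over regions, which share their libraries and are not independent. In the separate lines, D2 minus B6 had 15518 of 44797 regions called (34.6%). Of the 5479 regions called here that could be tested there, 3831 were called, 3522 in the same direction and 309 in the opposite one, of which 294 were higher in B6-13D2 here. In that comparison the block at 65-67 Mb differs in its D2 segment as well, with medians of 2.38 and 1.94 in favour of D2.

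The test of the difference between the 2 background contrasts, the interaction of background and segment, found 316 regions (0.364%). Of these, 31 lay at 68-69 Mb of chromosome 13, each with a negative interaction. The median levels over the 45 regions there were 35.6 CPM in B6-13D2, 22.7 in D2, 16.1 in D2-13B6 and 4.92 in B6. The segments of the congenic lines are named by different start markers, and marker positions were not used. Whether the segments differ in extent at the chromosome 13 sites was not tested. The promoter of Rec114, a gene for meiotic double-strand breaks, had 16 and 13.1 CPM in B6-13D2 and at most 3.36 CPM in any library of the other 3 lines (interaction log2 -4.31, SE 0.86, edgeR adjusted p = 0.00171). Its H3K27ac was higher in D2 than in B6-13D2 by 1.23. At chr13:69881662-69883616, 65.6 kb from Med10, B6 alone was high, with 37.2 to 45.7 CPM, against 3.09 to 7.34 CPM in the libraries of the other lines (interaction 3.6, SE 0.57, edgeR adjusted p = 1.01e-05). The number of interaction calls was 93 without D2 replicate 1, 150 and 202 without B6-13D2 replicate 1 and 2, 200, 189 and 205 without B6 replicate 1, 2 and 3, and 492, 184 and 201 without D2-13B6 replicate 1, 2 and 3. The Rec114 call was lost without B6-13D2 replicate 1 or D2-13B6 replicate 3.

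H3K27ac in the same lines differed at 50230 of 192158 regions (26.1%), with 2 samples a line after libraries that differed by less than the sampling noise were counted as 1 sample. Of the 6621 regions called for H3K9me3 that were tested for H3K27ac, 3486 were called, 2192 in the same direction and 1294 in the opposite one. Same-direction calls included the Skint and T cell receptor regions above. Opposite calls included Trak1, Bst1, Peg13, Cast and Dppa3, and also a region at Olfr94 and at Ubd (0 kb away), chr17:37195816-37198961. This region had 13.5 and 16.3 CPM of H3K9me3 in D2 and 7.05 and 4.2 CPM in B6-13D2. Its H3K27ac was lower in D2 by a log2 fold change of -4.65. The H3K9me3 call at Olfr94 was lost without B6-13D2 replicate 2 or D2 replicate 2. Over 78531 regions the log2 fold changes of the marks had a Pearson correlation of 0.15 and a Spearman correlation of 0.0791, as a description.

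**Figure D5:**
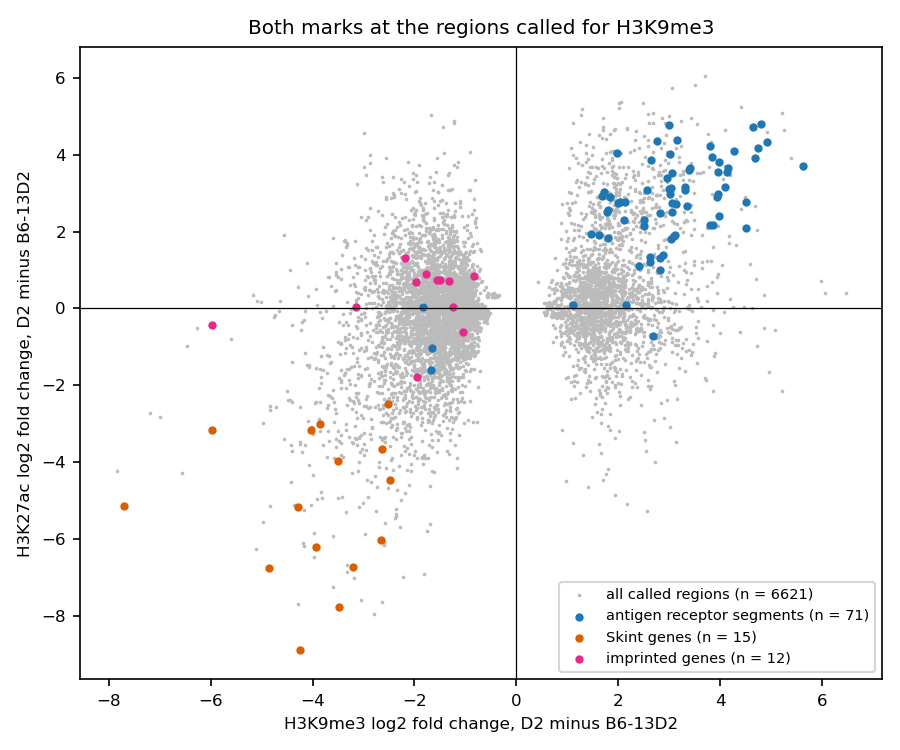
Log2 fold change D2 minus B6-13D2 of H3K9me3 (x axis) and of H3K27ac (y axis) at the 6621 regions called for H3K9me3 and tested for both marks. Skint regions (orange) lie at the lower left, antigen receptor segments (blue) mostly at the upper right, and imprinted regions (pink) left of 0 with H3K27ac between -1.79 and 1.31.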

How the data were processed

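The authors deposited unnormalised counts for each region, made from alignments with duplicates removed per the file headers. The submitters' processing notes name mm10, HISAT2 2.2.1, MACS 1.4.2, Trimmomatic 0.39, bedtools 2.9.2 and edgeR, with no roles; the making of the regions and the counting of multiply aligned reads are not given in the sources used here. Columns were matched by library name, and 2 columns matching no sample were not used. Starts were read as counted from 0, so a start may be shifted by 1 base. Regions were annotated with GENCODE M21. The labels and the series' design text differ in the marker that ends the D2-13B6 segment.

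The 10 H3K9me3 libraries of 4 lines were fitted together with edgeR 4.0.16 (R 4.3.3; TMM, filterByExpr with a minimum count of 10, quasi-likelihood test, Benjamini-Hochberg over all tested regions, threshold 0.05). Pairs of H3K27ac libraries that differed by less than the sampling noise were counted as 1 sample. CPM use TMM-scaled totals. The fit was tested on simulated data. DESeq2 1.42.0, other scalings and filters, and leaving out each library were the alternatives. Named regions were, by fixed rules, those with the largest differences per direction (for single regions, the higher line at 20 CPM or more, or 10 CPM on chromosome 13 and at promoters, and the lower line at 4 counts or more, or at 0, off chromosomes 18, X and Y) and the smallest p in each gene list; regions belong to a gene if within its body or 5 kb before its start. For single regions at 20 CPM or more, the rule also required that the libraries of the lines did not overlap. The members, lists and rules were chosen with earlier results of these data known. The individual imprinted, zinc finger, pluripotency, lineage and chromatin gene regions beyond these rules were named after their values were seen. Counting error alone is covered by floors.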

Additional observations from a re-analysis of the deposited data

Results flagged for a closer look

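The background contrast differed between lines with the D2 segment and lines with the B6 segment at 316 regions by the interaction test, 252 with a positive and 64 with a negative interaction, and 6421 had an unadjusted p under 0.05. Of the 316, 47 were on chromosome 13, 31 of them at 68-69 Mb, and 32 on chromosome 11, where the median log2 fold change was 0.69 for D2-13B6 minus B6 and 0.22 for D2 minus B6-13D2. The interaction was 3.91 near Sh2d6, chr6:72522338-72522726, where levels were 19 and 9.98 CPM in D2, 1.41 and 0.933 CPM in B6-13D2, 12.4, 2.57 and 3.36 CPM in D2-13B6 and 2.51, 17.3 and 3.02 CPM in B6, so that 1 library stood apart in each of the last 2 lines, and without B6 replicate 2 the interaction was 2.51 and missed the threshold. It was 3.6 at chr13:69881662-69883616, where B6 alone was high. It was -4.31 at the Rec114 promoter, where B6-13D2 alone was high. It was -4 at chr13:68055421-68055693, where levels were 28.1 and 20.5 CPM in D2, 32 and 39.6 CPM in B6-13D2, 12.4 to 23.2 CPM in D2-13B6 and 1.05 to 2.02 CPM in B6. The segments of the congenic lines have different start markers, and whether they differ in extent at these chromosome 13 sites was not tested.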

How the results depend on the processing

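The comparison of D2 with B6-13D2 kept its count within 1.5 times (6089 to 7360) with DESeq2 size factors, library totals, no filter, 4 libraries only, level-dependent scaling (chosen after seeing the data) and the replicate block. No named region reversed where an alternative could test it, among the 53 chosen by the rules and 24 others named in the text. DESeq2 tested 44 and 20 of these and lost the call at 6 and 10; the mean of at least 20 counts tested 28 and 12 and lost 0 and 2. Without D2 replicate 2, 13 calls by the rules and 8 others were lost. Without a filter, promoter calls were 490 and interaction calls 186. At a mean of at least 20 counts, 11849 regions were tested and 2819 called (1375 higher and 1444 lower in D2; 2659 off and 160 on chromosome 13; 490 at promoters; 79 at 65-67 Mb; 208 interactions; 4469 for D2-13B6 minus B6; 6658 in the separate lines), fewer regions being tested. DESeq2 called 2321 (732 higher, 1589 lower; 2185 off and 136 on chromosome 13; 211 at promoters; 72 at 65-67 Mb), 85 interactions, 6540 for D2-13B6 minus B6, 9620 in the separate lines and 28094 for H3K27ac; the cause was not tested. Level-dependent scaling gave 101 at 65-67 Mb.

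Leaving out 1 library at a time (where this leaves a line with 1 sample, as in D2 and B6-13D2 for H3K9me3, that sample is assumed to vary like the other lines) gave 3476 to 8963 calls (1111 to 3071 higher and 2272 to 5892 lower in D2; 3170 to 8376 off and 156 to 587 on chromosome 13; 318 to 1026 at promoters; 26 to 255 at 65-67 Mb), 93 to 492 interactions, 12057 to 21129 for D2-13B6 minus B6, 13495 to 15364 in the separate lines and 35654 to 59610 for H3K27ac. Replicate numbers shared by lines pair nothing in the labels. Deviations of same-numbered D2 and B6-13D2 libraries correlated at -0.03. With the replicate block, 7360 regions, 350 interactions, 18044 for D2-13B6 minus B6 and 14500 in the separate lines were called. For H3K27ac the block was fitted with all 12 libraries as separate samples and gave 59608 calls against 60040 for those libraries without it. A lower depth in D2 replicate 1 limits regions of few counts.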

Other observations

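Further windows of 1 Mb with many calls lay outside the gene lists. On the X chromosome at 169-170 Mb, which holds Mid1, Amelx and Hccs, 23 of 32 regions were higher in B6-13D2 and 0 higher in D2, the medians being -1.75 for H3K9me3 and -2.95 for H3K27ac on the log2 scale. The H3K9me3 median was -0.35 in the separate lines, 5 regions were called for the interaction, and the median level was 40 CPM in B6 against 19.7 CPM in B6-13D2. On chromosome 12 at 22-24 Mb, 46 of 68 and 50 of 71 regions of the 2 windows were higher in D2 and 0 lower, with medians of 1.54 and 1.69 and H3K27ac medians of 3.09 and 2.89. In the separate lines the medians of these windows were 0.11 and 0.31. On chromosome 9 at 3-4 Mb, 31 of 69 regions were higher in B6-13D2 and 1 higher in D2, with a small median (-0.46) and H3K27ac higher in D2 (0.31).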
